A study of Mus musculus with 8 samples.

Results

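The interferon stimulated genes described here are 40 genes out of 52636 in the table of mouse esophageal organoids. They were chosen by name, as genes whose transcription is known to follow interferon signalling, with earlier results of these data known. All 40 were found, and the 34 that reached 1 CPM (counts scaled to a common library total) in at least 2 libraries were tested. Organoids are cultures grown in a gel from single cells, here from the esophagi of wild-type mice, and the labels call the cells esophageal epithelial. Culture lasted 13 days. Treatment took 72 h, and the agents were replaced each 24 h. The 8 libraries form 4 groups of 2. The age of the mice is not stated. The TGFb1 + BMP4 organoids received TGFb1 at 1 ng/ml with BMP4 at 20 ng/ml, and the TGFb1 organoids received TGFb1 alone at that dose. The BMP4 + inhibitor organoids received BMP4 at 20 ng/ml with A8301 at 500 nM, a small molecule that blocks TGFb type I receptors. The inhibitor organoids, the controls, received A8301 alone. No inhibitor is listed for the groups with TGFb1, so in any comparison with a group given inhibitor, adding TGFb1 and leaving out A8301 cannot be told apart. Whether the 2 libraries in a group stem from different mice or cultures is not stated, so p-values measure only the spread between these libraries, which may be technical.

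Interferons are secreted proteins that bind cell surface receptors and activate the kinases JAK1, JAK2 and TYK2. Downstream of type I and type III interferons, STAT2 and IRF9 take part in a complex that binds interferon stimulated response elements. The genes switched on include sensors of foreign RNA and DNA, enzymes that degrade RNA or stop translation, the ubiquitin-like protein ISG15 and its enzymes, and proteins that hold back viruses. Epithelial cells can express many of these genes at a low level without infection.

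The data were normalised read counts in CPM, and the steps between low values put the depth at 28600000 to 43600000 reads per library. Libraries with and without TGFb1 lay on opposite sides of principal component 1 (68.1% of variance). The epithelial keratin gene Krt5 was at 3399 CPM or more in every library and Cdh1, which encodes E-cadherin, at 872 CPM or more. The other epithelial markers were less even. Krt4, a keratin of the differentiated layers, had 323 and 459 CPM in TGFb1 + BMP4 organoids, 3870.3 and 5199.6 CPM in TGFb1 organoids, 545 and 361 CPM in BMP4 + inhibitor organoids, and 4097 and 2824 CPM in inhibitor organoids. Of the 7 epithelial markers, 2 were higher (Epcam and Krt14) and 3 lower (Trp63, Krt4 and Krt13) with TGFb1 + BMP4, 2 were higher (Epcam and Krt14) and 1 lower (Trp63) with TGFb1, and 2 were lower (Krt4 and Krt13) with BMP4 + inhibitor, each against inhibitor. Over all tested genes 27.6% were higher and 18.4% lower with TGFb1 + BMP4, and 20.0% each with TGFb1. With BMP4 + inhibitor the shares were 5.49% and 2.91%. The part of the shifts of epithelial markers in the results on the members was not tested. The share of CPM from all mitochondrially encoded genes in the table lay between 0.366 and 0.684%. Bulk RNA cannot tell a change in the number of cells of a type from a change in RNA per cell.

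The promoters of 5 members are shown, with matches to a short form of the response element through which interferon stimulated genes are known to be activated. Irf7, Ifi44, Ddx58 and Isg15 had the smallest adjusted p-values for TGFb1 against inhibitor among members with a promoter in the RefSeq table, and Stat2 was the most abundant member that passed in no comparison. The sequences are from RefSeq on GRCm38.p6 and run 5′ to 3′ from 250 bases before the annotated start to 50 bases after it. The regions are chr7:141266375-141266674, minus strand, for Irf7, chr3:151749861-151750160, minus strand, for Ifi44, chr4:40239776-40240075, minus strand, for Ddx58, chr4:156200769-156201068, minus strand, for Isg15, and chr10:128270248-128270547, plus strand, for Stat2. Capitals mark matches to GAAANNGAAA or its reverse complement TTTCNNTTTC, a short form of the interferon stimulated response element.
Irf7: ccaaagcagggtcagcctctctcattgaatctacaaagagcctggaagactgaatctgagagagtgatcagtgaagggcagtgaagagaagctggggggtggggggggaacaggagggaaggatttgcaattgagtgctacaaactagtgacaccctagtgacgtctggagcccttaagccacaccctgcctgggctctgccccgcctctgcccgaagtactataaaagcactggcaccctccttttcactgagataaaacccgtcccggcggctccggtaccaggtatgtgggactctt
Ifi44: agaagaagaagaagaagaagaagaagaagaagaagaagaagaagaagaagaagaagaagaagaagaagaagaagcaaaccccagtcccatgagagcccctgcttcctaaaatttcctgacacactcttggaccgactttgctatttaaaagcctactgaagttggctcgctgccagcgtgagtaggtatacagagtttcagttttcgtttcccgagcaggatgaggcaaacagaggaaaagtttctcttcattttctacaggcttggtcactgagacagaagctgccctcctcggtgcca
Ddx58: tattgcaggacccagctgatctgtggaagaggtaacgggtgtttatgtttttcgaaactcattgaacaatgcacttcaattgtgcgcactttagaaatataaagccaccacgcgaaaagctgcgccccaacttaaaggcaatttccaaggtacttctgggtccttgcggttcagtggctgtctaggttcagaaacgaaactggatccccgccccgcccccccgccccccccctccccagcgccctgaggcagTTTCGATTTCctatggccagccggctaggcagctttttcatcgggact
Isg15: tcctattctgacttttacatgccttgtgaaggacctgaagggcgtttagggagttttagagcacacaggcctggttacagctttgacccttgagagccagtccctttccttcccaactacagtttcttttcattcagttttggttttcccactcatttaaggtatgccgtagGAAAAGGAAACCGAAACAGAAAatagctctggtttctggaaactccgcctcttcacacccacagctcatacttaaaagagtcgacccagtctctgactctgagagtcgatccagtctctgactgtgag
Stat2: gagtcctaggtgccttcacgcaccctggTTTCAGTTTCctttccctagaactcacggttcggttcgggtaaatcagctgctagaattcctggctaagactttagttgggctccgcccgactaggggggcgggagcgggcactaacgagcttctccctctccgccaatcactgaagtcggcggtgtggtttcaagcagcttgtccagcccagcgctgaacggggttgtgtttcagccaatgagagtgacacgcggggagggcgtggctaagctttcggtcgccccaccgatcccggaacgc

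Isg15 held 3 matches that overlap each other and begin 78, 72 and 66 bases before the start. Stat2 held 1 match 222 bases before the start, and Ddx58 held 1 at base 3 after it. The letters were not found in the windows of Irf7 and Ifi44. Only this short form was searched, so that does not show that the element is absent there. Of the 40 members 30 had a window, and 15 of these (50%) held the motif on either strand, 8 of them at 2 or more places. Over all 32851 windows in the table the share was 3.44%, and over the 27025 genes it was 3.99%. The share was the same (10 of 20 and 5 of 10) among the 20 windows of members that were higher in TGFb1 than in inhibitor organoids and among the other 10. These matches are descriptions of letters and no test was made on them.

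In TGFb1 organoids, most interferon stimulated genes were more abundant than in inhibitor organoids. At an adjusted p under 0.05 in limma, 27 of 40 members were higher, 1 was lower, 6 did not pass and 6 were too low to be tested. Of all 16180 tested genes 20.0% were higher and 20.0% lower. The median log2 fold change of the 34 tested members, taken on CPM + 1, was 1.79, beside -0.01 over all tested genes. Of the tested members 12 were under 1 CPM in both inhibitor libraries and entered the test through other groups, and 11 of these were called higher, where 39% of all 1487 genes of that kind were higher and 0 lower. Of the other 22, at 1 CPM or more in both inhibitor libraries, 16 were higher and 1 lower, where 18% of all genes at that level were higher and 23% lower. Both TGFb1 libraries lay above both inhibitor libraries for 31 tested members and below them for 1, and over all tested genes the shares were 37.9% above and 38.6% below. The count of 28 was 18 without TGFb1 replicate 1 and also 18 without inhibitor replicate 2, where Irf1, Irf9, Ifih1, Herc6, Oas1a, Oas3, Oasl1, Ifitm3, Gbp2 and Xaf1 no longer passed. The plot of all members by library shows these levels by role.

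**Figure D1:**
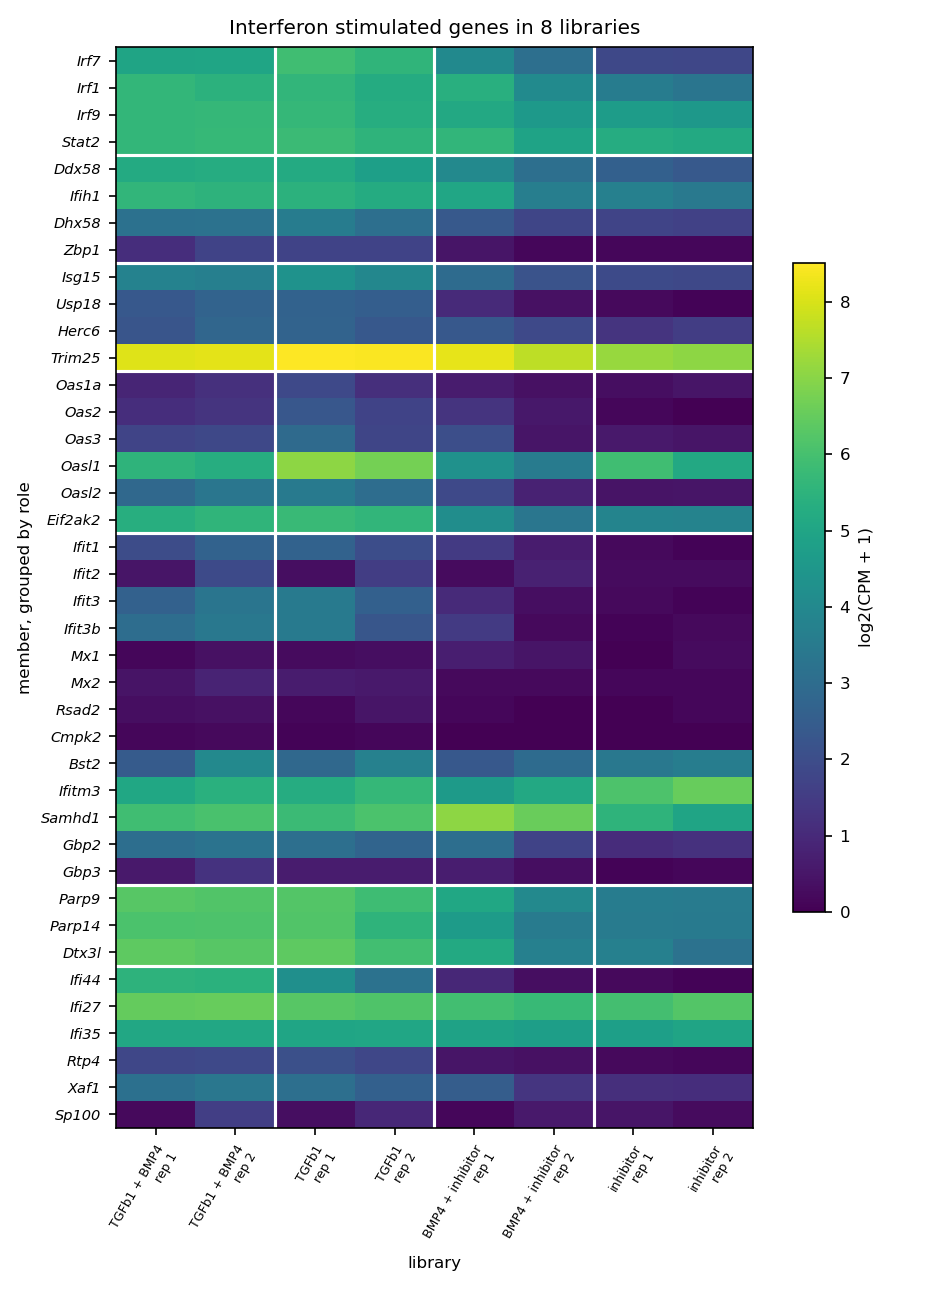
Level of each of the 40 members (rows, grouped by role) in each of the 8 libraries (columns), as log2(CPM + 1) by colour. Most rows are brightest in the 4 columns with TGFb1, while the rows of Ifitm3 and Samhd1 are brightest in the inhibitor and the BMP4 + inhibitor columns.

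Of the 4 transcription factors among the members, 3 were higher with TGFb1, where 20.0% of all tested genes were higher. Irf7, the factor that drives interferon genes and is itself induced by interferon (ENSMUSG00000025498, chromosome 7, 141262706 to 141266481, GRCm38), had 30.4 and 30.7 CPM in TGFb1 + BMP4 organoids, 58.9 and 46.3 CPM in TGFb1 organoids, 15.3 and 7.65 CPM in BMP4 + inhibitor organoids, and 2.6 and 2.55 CPM in inhibitor organoids. No library with TGFb1 overlapped one without it, and BMP4 + inhibitor lay between the TGFb1 groups and the inhibitor group. The log2 fold change was 3.90 ± 0.29 for TGFb1 against inhibitor (SE, adjusted p = 0.000462), 3.14 ± 0.29 for TGFb1 + BMP4 against inhibitor (adjusted p = 0.000504) and 1.73 ± 0.29 for BMP4 + inhibitor against inhibitor (adjusted p = 0.0202). The call with BMP4 + inhibitor was lost with no filter on low values and with the compared groups alone.

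Irf1, a factor best known from the response to type II interferon, had 48.7 and 43.1 CPM in TGFb1 + BMP4 organoids, 47.7 and 36.7 CPM in TGFb1 organoids, 40.6 and 15.8 CPM in BMP4 + inhibitor organoids, and 11 and 8.9 CPM in inhibitor organoids. Its level in BMP4 + inhibitor replicate 1 was close to the levels with TGFb1, while replicate 2 lay nearer the inhibitor libraries. It rose by 1.98 ± 0.40 with TGFb1 (adjusted p = 0.0101) and by 2.10 ± 0.40 with TGFb1 + BMP4 (adjusted p = 0.00665), both on the log2 scale against inhibitor. With BMP4 + inhibitor the difference was 1.28 ± 0.40 and did not pass (adjusted p = 0.102). Irf9, the DNA-binding part of the complex that holds STAT2, had 48.9 and 49.7 CPM in TGFb1 + BMP4 organoids, 50.3 and 38.7 CPM in TGFb1 organoids, 34 and 22.9 CPM in BMP4 + inhibitor organoids, and 25.1 and 22.3 CPM in inhibitor organoids. It rose by 0.87 ± 0.21 with TGFb1 (adjusted p = 0.0188) and by 1.03 ± 0.21 with TGFb1 + BMP4 (adjusted p = 0.00888).

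Stat2, which encodes a further part of that complex (ENSMUSG00000040033, chromosome 10, 128270559 to 128292849), had 48.6 and 50.9 CPM in TGFb1 + BMP4 organoids, 54.2 and 45.8 CPM in TGFb1 organoids, 47.3 and 29.7 CPM in BMP4 + inhibitor organoids, and 37.3 and 35.2 CPM in inhibitor organoids. The TGFb1 libraries lay above the inhibitor libraries, but the difference of 0.45 on the log2 scale, with a 95% interval of -0.06 to 0.96, did not pass (adjusted p = 0.137). Stat2 passed in none of the 6 comparisons. The plot of the changes shows where each tested member stands.

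**Figure D2:**
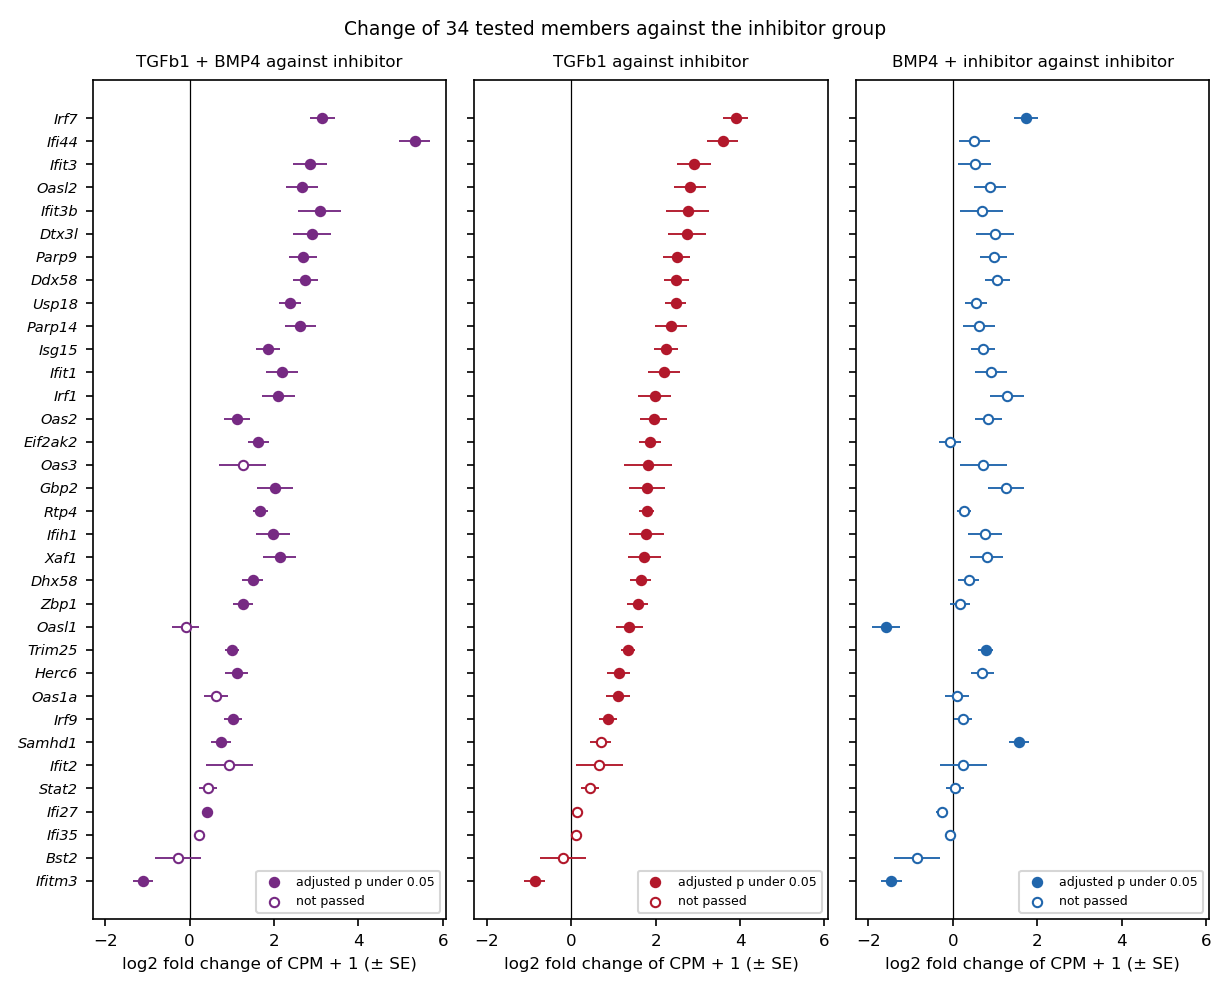
Log2 fold change of CPM + 1 against the inhibitor group (horizontal axis, points with SE from limma) for the 34 tested members (rows, ordered by the TGFb1 change) in 3 panels, for TGFb1 + BMP4, TGFb1 and BMP4 + inhibitor. Filled points passed an adjusted p of 0.05, which 27, 28 and 5 members did, and Ifitm3 is left of 0 in all 3 panels.

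All 4 sensors were higher in TGFb1 than in inhibitor organoids, where 20.0% of all tested genes were higher. Ddx58 encodes RIG-I, a cytosolic sensor of viral RNA, and had 36.2 and 37.8 CPM in TGFb1 + BMP4 organoids, 36 and 26.6 CPM in TGFb1 organoids, 15 and 7.7 CPM in BMP4 + inhibitor organoids, and 5.15 and 4.25 CPM in inhibitor organoids. Its TGFb1 and inhibitor libraries were far apart, with a log2 fold change of 2.49 ± 0.30 (adjusted p = 0.00182), and the value for TGFb1 + BMP4 against inhibitor was 2.74 ± 0.30 (adjusted p = 0.000897). Ifih1 encodes MDA5, a sensor of long double-stranded RNA, and had 47.3 and 44.2 CPM in TGFb1 + BMP4 organoids, 43.7 and 36.6 CPM in TGFb1 organoids, 31.8 and 11.6 CPM in BMP4 + inhibitor organoids, and 12.1 and 9.84 CPM in inhibitor organoids. It rose by 1.78 ± 0.41 with TGFb1 (adjusted p = 0.0157) and by 1.97 ± 0.41 with TGFb1 + BMP4 (adjusted p = 0.00924). BMP4 + inhibitor replicate 2 lay within the inhibitor libraries for Ifih1, and replicate 1 far above them. Dhx58, which encodes the related helicase LGP2, and Zbp1, a sensor of nucleic acids in the Z form, rose by 1.64 and 1.57 with TGFb1, though Zbp1 stayed at or below 2.3 CPM in every library.

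All 4 members of the ISG15 system were higher with TGFb1, where 20.0% of all tested genes were higher. Isg15, which encodes a ubiquitin-like protein that is attached to other proteins (ENSMUSG00000035692, chromosome 4, 156199424 to 156200818), had 12.8 and 11.8 CPM in TGFb1 + BMP4 organoids, 19 and 14.2 CPM in TGFb1 organoids, 6.9 and 3.55 CPM in BMP4 + inhibitor organoids, and 2.75 and 2.6 CPM in inhibitor organoids. Both TGFb1 groups lay above both other groups, with log2 fold changes against inhibitor of 2.25 ± 0.28 for TGFb1 (adjusted p = 0.00213) and 1.86 ± 0.28 for TGFb1 + BMP4 (adjusted p = 0.00295). Usp18, the protease that removes ISG15 and also dampens interferon receptor signalling, had 4.05 and 5.5 CPM in TGFb1 + BMP4 organoids, 5.4 and 4.85 CPM in TGFb1 organoids, 0.999 and 0.3 CPM in BMP4 + inhibitor organoids, and 0.15 and 0.05 CPM in inhibitor organoids. Its inhibitor libraries were at or under 0.15 CPM, the level of 3 units of the deposited scaled counts, so its log2 fold change of 2.48 ± 0.25 with TGFb1 (adjusted p = 0.00114) depends on the added 1 CPM. The same holds for Ifi44, Ifit1, Ifit3, Ifit3b, Oas2, Rtp4 and Zbp1, whose inhibitor libraries were at this level too, so their log2 fold changes are no bounds and do not rank them.

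Trim25, an E3 ligase that activates RIG-I and can attach ISG15, was the most abundant member and had 274 and 288 CPM in TGFb1 + BMP4 organoids, 364 and 353 CPM in TGFb1 organoids, 289.9 and 201 CPM in BMP4 + inhibitor organoids, and 147 and 133 CPM in inhibitor organoids. It rose by 1.35 ± 0.17 with TGFb1 (adjusted p = 0.00227), by 1.00 ± 0.17 with TGFb1 + BMP4 (adjusted p = 0.00479) and by 0.78 ± 0.17 with BMP4 + inhibitor (adjusted p = 0.0438). The call with BMP4 + inhibitor was lost with no filter on low values, with median-of-ratios scaling and with the compared groups alone. Herc6, the main ISG15 ligase of the mouse, rose by 1.12 with TGFb1 and 1.11 with TGFb1 + BMP4. It lay between 1.45 and 6 CPM, and 12.5% of its 50-base stretches occur in another annotated gene, so its counts are uncertain. Uba7 and Ube2l6, which encode the E1 and E2 enzymes of ISG15 and are not among the 40, are named after their values were seen. Uba7 had 34.6 and 25.6 CPM in TGFb1 and 1.55 and 1.1 CPM in inhibitor organoids (3.73 ± 0.51, adjusted p = 0.00267), and Ube2l6 averaged 8.79 ± 1.77 CPM in TGFb1 and 1.57 ± 0.177 CPM in inhibitor organoids (SD, n = 2 each, 1.92 ± 0.32, adjusted p = 0.00511).

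The enzymes that act on double-stranded RNA were all 6 higher with TGFb1, and 3 of 6 were higher with TGFb1 + BMP4. Over all tested genes 20.0% and 27.6% were higher. Oasl2, an OAS-like protein, had 6.3 and 9.24 CPM in TGFb1 + BMP4 organoids, 10.3 and 7.3 CPM in TGFb1 organoids, 2.7 and 0.75 CPM in BMP4 + inhibitor organoids, and 0.35 and 0.4 CPM in inhibitor organoids. It rose by 2.82 ± 0.38 with TGFb1 (adjusted p = 0.00264) and by 2.65 ± 0.38 with TGFb1 + BMP4 (adjusted p = 0.00234). Eif2ak2, which encodes the kinase PKR that stops translation, rose by 1.86 and 1.63 and was between 39.4 and 53.2 CPM in the 4 libraries with TGFb1, against 9.24 to 16.9 CPM in the other 4. Oas1a, Oas2 and Oas3, synthetases of the messenger that activates RNase L, were at or below 6.7 CPM in every library and rose by 1.11, 1.95 and 1.82 with TGFb1. For Oas1a, 57.6% of its 50-base stretches also occur in other genes, mostly Oas1g.

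Oasl1, which in the mouse restrains the translation of Irf7, had 45.3 and 38.5 CPM in TGFb1 + BMP4 organoids, 132 and 106 CPM in TGFb1 organoids, 18.7 and 10.7 CPM in BMP4 + inhibitor organoids, and 58.8 and 34 CPM in inhibitor organoids. The TGFb1 libraries were the highest and the BMP4 + inhibitor libraries the lowest, while TGFb1 + BMP4 and inhibitor libraries overlapped. It rose by 1.38 ± 0.33 with TGFb1 against inhibitor (adjusted p = 0.0179) and fell with BMP4 + inhibitor, with a log2 fold change of -1.59 ± 0.33 (adjusted p = 0.0357). The call of that fall was lost with no filter on low values, with the compared groups alone and with any 1 library left out. In TGFb1 + BMP4 against inhibitor Oasl1 differed by -0.10, with a 95% interval of -0.88 to 0.69 (adjusted p = 0.824). The difference between TGFb1 + BMP4 and TGFb1 was -1.48 ± 0.33 and did not pass (adjusted p = 0.0817), although both TGFb1 + BMP4 libraries lay below both TGFb1 libraries.

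Of the 13 restriction factors 8 were tested, and with TGFb1 4 of these were higher, 1 was lower and 3 did not pass. Over all tested genes 20.0% were higher and 20.0% lower. The other 5 were too low to be tested. Ifit3, one of the IFIT proteins that bind foreign RNA, had 5.3 and 8.99 CPM in TGFb1 + BMP4 organoids, 10.3 and 5.05 CPM in TGFb1 organoids, 0.999 and 0.25 CPM in BMP4 + inhibitor organoids, and 0.15 and 0.05 CPM in inhibitor organoids. Ifit3b, its near copy, had 7.25 and 9.54 CPM in TGFb1 + BMP4 organoids, 10.4 and 3.85 CPM in TGFb1 organoids, 1.7 and 0.15 CPM in BMP4 + inhibitor organoids, and 0.05 and 0.15 CPM in inhibitor organoids. The log2 fold changes with TGFb1 were 2.91 ± 0.39 for Ifit3 (adjusted p = 0.00264) and 2.76 ± 0.51 for Ifit3b (adjusted p = 0.00772), and with TGFb1 + BMP4 they were 2.85 and 3.09. These genes share 51.2% and 45.0% of their 50-base stretches with other genes, mainly each other, so the split of reads between them is uncertain. Ifit1 rose by 2.21 and Gbp2, a guanylate-binding GTPase, by 1.79. Ifit2 was at or below 2.8 CPM and did not pass (adjusted p = 0.365).

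Ifitm3, a membrane protein that blocks virus entry, was the 1 member lower with TGFb1. It had 32.6 and 41.5 CPM in TGFb1 + BMP4 organoids, 38 and 49.6 CPM in TGFb1 organoids, 23.7 and 34.4 CPM in BMP4 + inhibitor organoids, and 69.9 and 91.8 CPM in inhibitor organoids. The inhibitor libraries were the 2 highest, with no overlap with any other group. The log2 fold change against inhibitor was -1.1 ± 0.24 with TGFb1 + BMP4 (adjusted p = 0.0116), -0.87 ± 0.24 with TGFb1 (adjusted p = 0.0304) and -1.46 ± 0.24 with BMP4 + inhibitor (adjusted p = 0.0196), so the gene fell in all 3. Some of its 50-base stretches also occur in the annotated gene Gm7676. Bst2, which encodes the virus-tethering protein tetherin, lay between 4.05 and 15.1 CPM and passed in none of the comparisons.

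Samhd1, which depletes the nucleotides needed by viruses (ENSMUSG00000027639, chromosome 2, 157097533 to 157135265), was the only tested member with its highest group mean in BMP4 + inhibitor. It had 58.7 and 66.3 CPM in TGFb1 + BMP4 organoids, 54.7 and 66.9 CPM in TGFb1 organoids, 133 and 93.6 CPM in BMP4 + inhibitor organoids, and 45.3 and 30.1 CPM in inhibitor organoids. It rose by 1.57 ± 0.24 with BMP4 + inhibitor against inhibitor (adjusted p = 0.0163) and was lower in TGFb1 + BMP4 than in BMP4 + inhibitor organoids, with a log2 fold change of -0.83 ± 0.24 (adjusted p = 0.0463). With TGFb1 against inhibitor it differed by 0.70, with a 95% interval of 0.11 to 1.28 (adjusted p = 0.0608). Mx1 and Mx2, dynamin-like antiviral proteins, Rsad2, which encodes viperin, and its neighbour Cmpk2 never reached 1 CPM. The highest library of each was at 0.65 CPM for Mx1, 0.799 CPM for Mx2, 0.4 CPM for Rsad2 and 0.15 CPM for Cmpk2. Gbp3 reached 1.35 CPM in 1 library, as did Sp100, a nuclear body protein, at 2 CPM, so neither was tested.

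Parp9, Dtx3l and Parp14, a set of ADP-ribosyltransferases and a ubiquitin ligase that binds PARP9, all rose in both TGFb1 groups. Against inhibitor, 20.0% of all tested genes were higher with TGFb1 and 27.6% with TGFb1 + BMP4. Dtx3l had 83.6 and 77.2 CPM in TGFb1 + BMP4 organoids, 84.3 and 60.8 CPM in TGFb1 organoids, 34.8 and 12.2 CPM in BMP4 + inhibitor organoids, and 11.9 and 8.15 CPM in inhibitor organoids. Parp14 had 68 and 69.3 CPM in TGFb1 + BMP4 organoids, 71.8 and 45.6 CPM in TGFb1 organoids, 24.7 and 10.7 CPM in BMP4 + inhibitor organoids, and 10.6 and 9.99 CPM in inhibitor organoids. With TGFb1 the log2 fold changes were 2.74 ± 0.45 for Dtx3l (adjusted p = 0.0051), 2.36 ± 0.37 for Parp14 (adjusted p = 0.00442) and 2.5 ± 0.32 for Parp9 (adjusted p = 0.00234). All 3 were also higher in TGFb1 + BMP4 than in BMP4 + inhibitor organoids, by 1.90, 2.0 and 1.72, where 17.3% of all tested genes were higher. Parp9 and Dtx3l are neighbours on opposite strands that share 9.4% and 8.0% of their exon bases, and whether strand was used in counting is not given in the sources used here.

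Ifi44, a cytoplasmic protein of the interferon response (ENSMUSG00000028037, chromosome 3, 151730922 to 151749960), had 44.2 and 42.6 CPM in TGFb1 + BMP4 organoids, 18 and 8.25 CPM in TGFb1 organoids, 0.949 and 0.25 CPM in BMP4 + inhibitor organoids, and 0.15 and 0.05 CPM in inhibitor organoids. Both TGFb1 + BMP4 libraries lay above both TGFb1 libraries, and those above all libraries without TGFb1. The log2 fold change against inhibitor was 5.34 ± 0.37 with TGFb1 + BMP4 (adjusted p = 0.000223) and 3.59 ± 0.37 with TGFb1 (adjusted p = 0.00113). Rtp4, a chaperone of membrane receptors, and Xaf1, a pro-apoptotic protein, rose by 1.79 and 1.73 with TGFb1. Ifi27 and Ifi35 did not pass with TGFb1, at log2 fold changes of 0.14 and 0.12, with 95% intervals of -0.17 to 0.45 and -0.16 to 0.39. The plot of named members gives the values of every library.

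**Figure D3:**
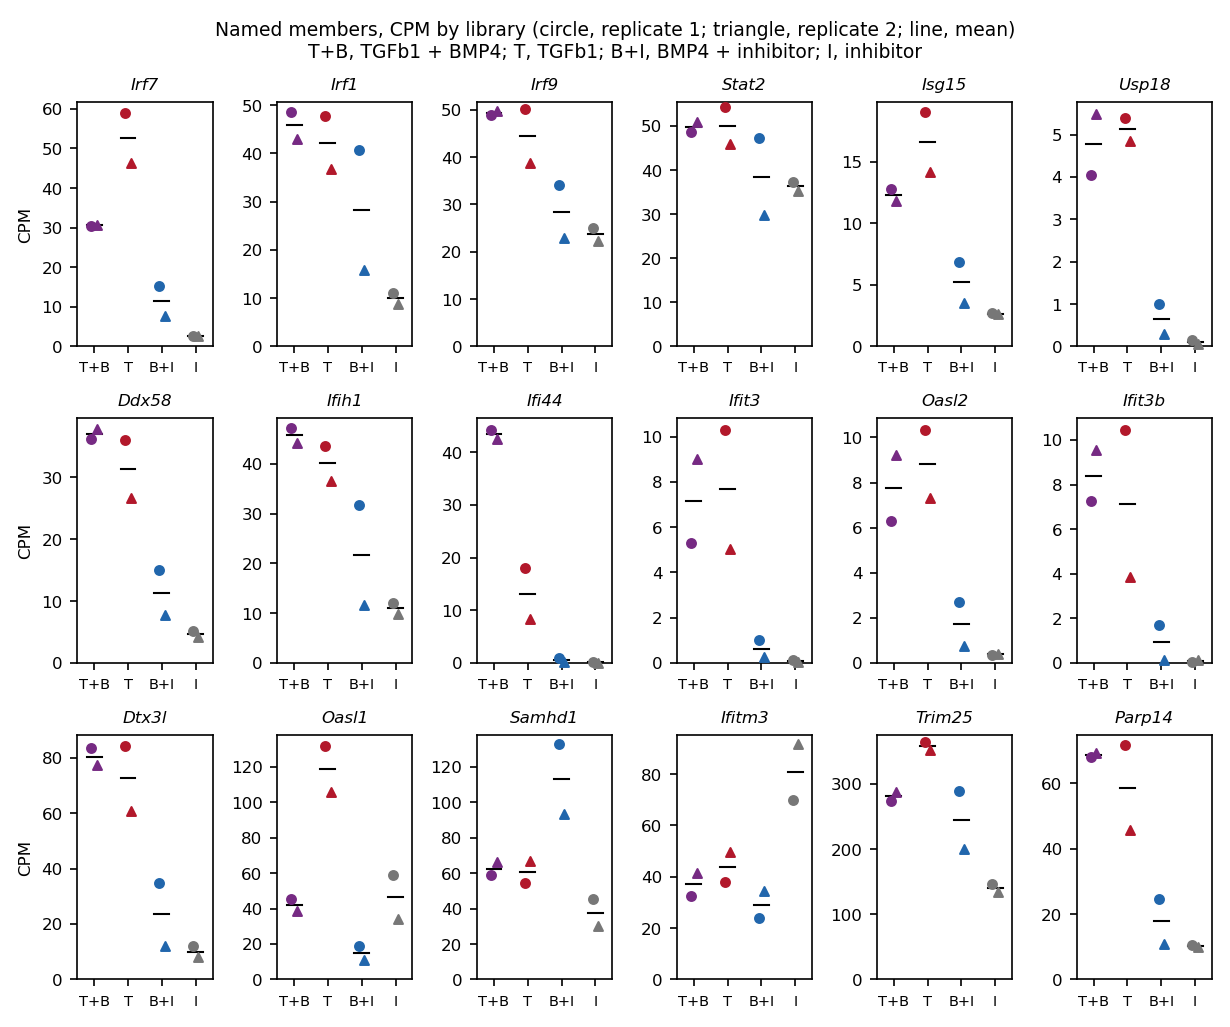
CPM (vertical axes, each from 0) of the 18 named members in TGFb1 + BMP4, TGFb1, BMP4 + inhibitor and inhibitor organoids, with replicate 1 as circles, replicate 2 as triangles and the mean of 2 as a line. Irf7, Isg15 and Trim25 are highest with TGFb1, Ifi44 with TGFb1 + BMP4, Samhd1 with BMP4 + inhibitor and Ifitm3 with inhibitor.

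Across the 34 tested members, the highest group mean was in TGFb1 for 17, in TGFb1 + BMP4 for 14, in BMP4 + inhibitor for 1 and in inhibitor for 2. The lowest mean was in inhibitor for 28 and in BMP4 + inhibitor for 6. The summed level of the 40 members was 1186 and 1239 CPM in TGFb1 + BMP4 organoids, 1409 and 1217 CPM in TGFb1 organoids, 895 and 585 CPM in BMP4 + inhibitor organoids, and 571 and 541 CPM in inhibitor organoids. Every library with TGFb1 was above every library without it on this sum.

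In TGFb1 + BMP4 against inhibitor, 26 of 40 members were higher and 1 lower, where 27.6% of all tested genes were higher and 18.4% lower, 46.0% in all. The 12 tested members under 1 CPM in both inhibitor libraries entered the test through other groups and could hardly be called lower. Shares by level were taken for TGFb1 against inhibitor alone. The libraries did not overlap for 31 members that were higher and 1 that was lower, where the shares over all tested genes were 44.9% and 31.6%. The median log2 fold change of the tested members was 1.65, beside 0.13 over all tested genes. This comparison and that of TGFb1 against inhibitor share their inhibitor libraries, so their values stand side by side and are not independent. Oas1a, Oas3 and Oasl1 were called in TGFb1 against inhibitor and not here, and Ifi27 and Samhd1 were called here and not there. Ifi27 rose by 0.42 ± 0.13 (adjusted p = 0.0357). With median-of-ratios scaling, which moved the median of all genes to 0.01, the calls of Samhd1 and Ifi27 were lost.

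Between TGFb1 + BMP4 and TGFb1 organoids 0 of 34 tested members passed in limma, where 0.921% of all tested genes were higher and 1.09% lower, 2.01% in all. The libraries did not overlap for 6 members that were higher and 6 that were lower, where the shares over all tested genes were 38.3% and 14.4%. At an unadjusted p under 0.05 there were 4 (11.8%, beside 19.9% of all tested genes), namely Irf7, Oas2, Oasl1 and Ifi44. Ifi44 differed by 1.74 ± 0.37 (adjusted p = 0.0742), with a 95% interval of 0.86 to 2.62, and Irf7 by -0.75 ± 0.29 (adjusted p = 0.225), with a 95% interval of -1.46 to -0.05. Oas2 differed by -0.82 (adjusted p = 0.217). The median over the tested members was -0.01, beside 0.13 over all tested genes. A missed threshold does not show that the groups were alike, and intervals such as that of Ifih1, -0.79 to 1.16, leave room for changes of either sign.

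In BMP4 + inhibitor against inhibitor organoids, 3 of 40 were higher, namely Irf7, Trim25 and Samhd1, and 2 were lower, namely Oasl1 and Ifitm3, where 5.49% of all tested genes were higher and 2.91% lower, 8.41% in all. The libraries did not overlap for 20 members that were higher and 4 that were lower, where the shares over all tested genes were 30.9% and 27.0%. The median log2 fold change of the tested members was 0.65, beside 0.02 over all tested genes. That median was 0.98 without BMP4 + inhibitor replicate 2 and 0.19 without replicate 1. At an unadjusted p under 0.05 there were 13 members (38.2%), beside 26.7% of all tested genes. Eif2ak2 differed by -0.06, with a 95% interval of -0.68 to 0.56, and Isg15 by 0.71, with an interval of 0.03 to 1.38.

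The libraries of the BMP4 + inhibitor group stood apart from each other for these genes. Replicate 2 was higher than replicate 1 for 3 of 34 tested members, with a median difference, replicate 2 minus replicate 1, of -0.71 on the log2 scale, while over all tested genes it was -0.001. In the TGFb1 group replicate 2 was higher for 6 of 34 (median -0.37), in TGFb1 + BMP4 for 26 (0.09) and in inhibitor for 9 (-0.07). Over all tested genes replicate 2 was higher for 48.9% in BMP4 + inhibitor and 55.9% in TGFb1. The shares were 56.2% in TGFb1 + BMP4 and 58.3% in inhibitor. The number of members called for BMP4 + inhibitor against inhibitor was 14 without BMP4 + inhibitor replicate 2, 1 without replicate 1, 1 without inhibitor replicate 1 and 0 without inhibitor replicate 2. It was 3 without any 1 of the 4 libraries with TGFb1, so 1 library decides this count and none of the 5 calls held in all 8 fits. It was 1 with no filter on low values (Samhd1) and 2 with the compared groups alone (Ifitm3 and Samhd1).

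**Figure D4:**
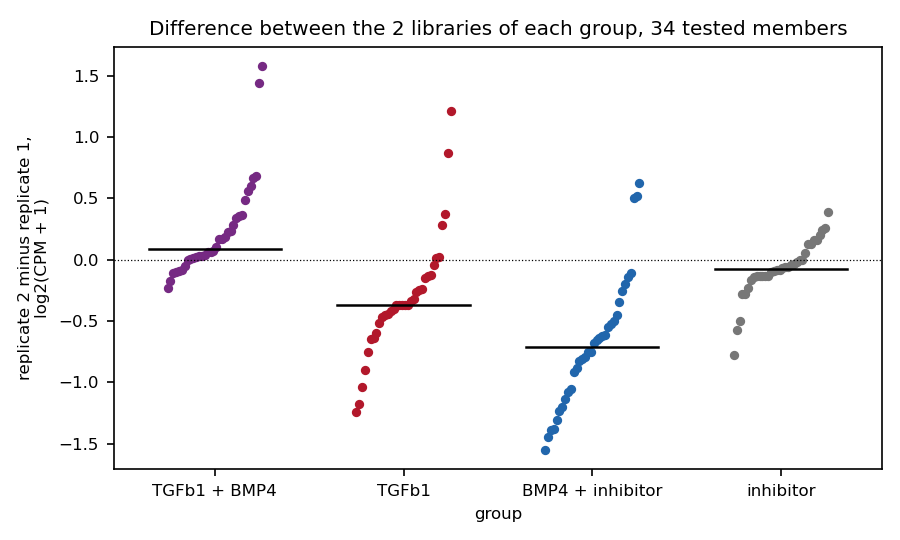
Difference between the libraries of each group, replicate 2 minus replicate 1 on log2(CPM + 1) (vertical axis), for the 34 tested members (points, sorted) in the 4 groups, with the median as a line. In BMP4 + inhibitor 3 of 34 points lie above 0 and the median is -0.71, against -0.07 in inhibitor.

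With BMP4 present in both groups, 20 of 40 members were higher in TGFb1 + BMP4 than in BMP4 + inhibitor organoids and 1, Samhd1, was lower, where 17.3% of all tested genes were higher and 10.9% lower, 28.2% in all. Ifi44, Ifit3, Usp18, Rtp4 and Zbp1, all among the 20, were under 1 CPM in both BMP4 + inhibitor libraries. They entered the test through the TGFb1 groups and could hardly be called lower. The share over all genes of that kind was not taken for this comparison. The libraries did not overlap for 25 members that were higher and 1 that was lower, where the shares over all tested genes were 39.6% and 24.2%. The median log2 fold change was 1.13, beside 0.12 over all tested genes. Ifi44 rose by 4.83 ± 0.37 (adjusted p = 0.000578), Ifit3b by 2.40 ± 0.51 (adjusted p = 0.0165), Ifit3 by 2.33 ± 0.39 (adjusted p = 0.00717) and Oasl2 by 1.76 ± 0.38 (adjusted p = 0.017). Irf1 and Ifih1 differed by 0.82 and 1.2 and did not pass. The count was 25 without BMP4 + inhibitor replicate 1 and 11 without replicate 2, and it was 12 without TGFb1 + BMP4 replicate 1 and 8 without replicate 2. With the compared groups alone it was 11.

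The test of whether BMP4 acted differently with TGFb1 than with inhibitor, taken as the difference of the 2 BMP4 effects, gave 0 of 34 members at an adjusted p under 0.05, where 0.297% of all tested genes were above 0 and 0.989% below, 1.29% in all. At an unadjusted p under 0.05 there were 7 members (20.6%), 5 of them below 0, beside 19.0% of all tested genes, so the share is near that of all genes. The lowest value was that of Irf7, at -2.49 ± 0.42 on the log2 scale (adjusted p = 0.0514). Irf7 passed with a pseudocount of 0.1 and with median-of-ratios scaling, and 3 members (Irf7, Irf1 and Trim25) passed without BMP4 + inhibitor replicate 2. BMP4 went with a higher level of Irf7 next to the inhibitor (1.73) and a lower one next to TGFb1 (-0.75). Samhd1 was at -1.53 ± 0.35 (adjusted p = 0.0999), Trim25 at -1.13 ± 0.25 (adjusted p = 0.0916) and Ifitm3 at 1.22 ± 0.34 (adjusted p = 0.155). The median over tested members was -0.58 and 27 of 34 were below 0. Over all tested genes the median was 0.12 and 6333 of 16180 were below 0. The members' median was -0.94 without BMP4 + inhibitor replicate 2 and -0.25 without replicate 1.

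The interferons themselves were near 0. All 21 genes for type I, II and III interferons in the list were under 1 CPM in every library, 12 of them were at 0 everywhere, and no library exceeded 0.1 CPM for any of them, below the 0.15 CPM of 3 units. Summed over the list they reached 0.15 and 0.4 CPM in TGFb1 + BMP4 organoids, 0.2 and 0.15 CPM in TGFb1 organoids, 0.15 and 0.2 CPM in BMP4 + inhibitor organoids, and 0 and 0 CPM in inhibitor organoids.

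Of 9 genes for interferon receptors and JAK kinases, 7 were higher with TGFb1, and all 9 with TGFb1 + BMP4, both against inhibitor. Over all tested genes 20.0% and 27.6% were higher. All 9 receptor and kinase genes were also higher in TGFb1 + BMP4 than in BMP4 + inhibitor organoids, where 17.3% of all tested genes were higher. In limma 0 of the 9 passed for BMP4 + inhibitor against inhibitor, where 5.49% of all tested genes were higher and 2.91% lower. At an unadjusted p under 0.05 there was 1, beside 26.7% of all tested genes. Ifngr1, a subunit of the type II receptor, had 132 and 139 CPM in TGFb1 + BMP4 organoids, 199 and 149 CPM in TGFb1 organoids, 47.7 and 53 CPM in BMP4 + inhibitor organoids, and 46.8 and 59.5 CPM in inhibitor organoids, and rose by 1.69 ± 0.18 with TGFb1 (adjusted p = 0.00117). Ifngr2, the other subunit, rose by 1.65 ± 0.16 (adjusted p = 0.000942). The 2 that did not pass with TGFb1 were both subunits of the type I receptor, Ifnar1 at 0.29 (adjusted p = 0.092) and Ifnar2 at 0.40 (adjusted p = 0.161), named after their values were seen.

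**Figure D5:**
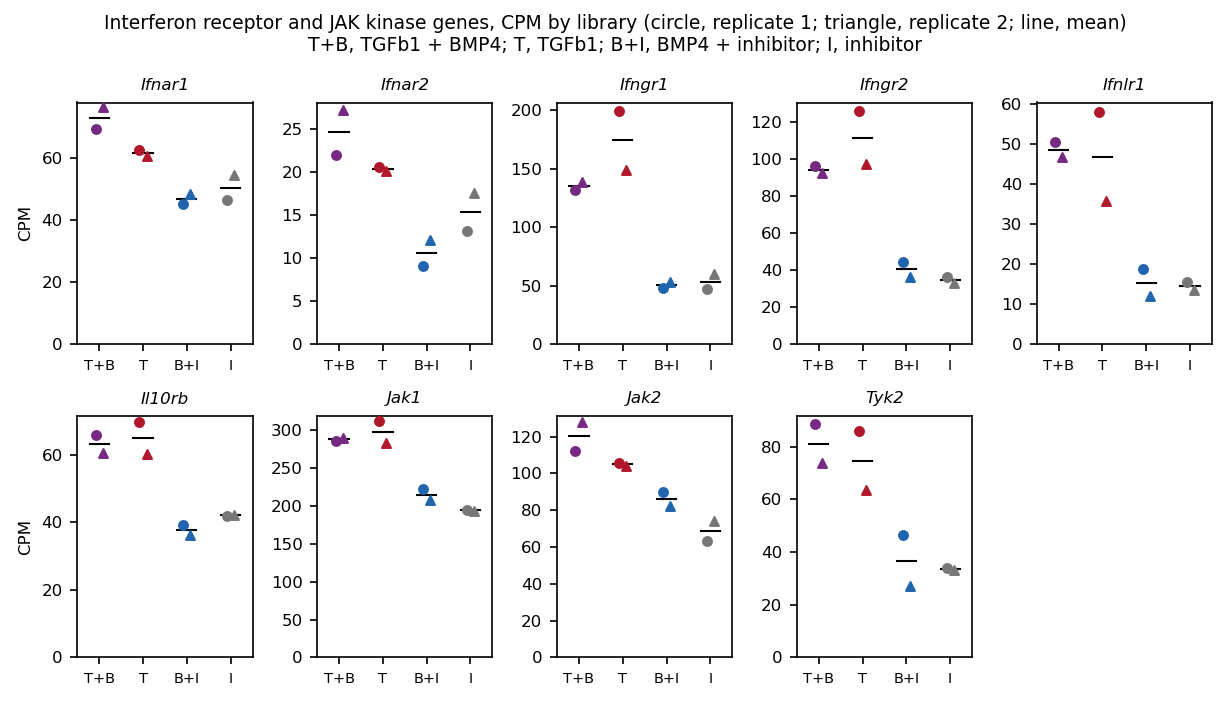
CPM (vertical axes, each from 0) of the 9 interferon receptor and JAK kinase genes in TGFb1 + BMP4, TGFb1, BMP4 + inhibitor and inhibitor organoids, with replicate 1 as circles, replicate 2 as triangles and the mean as a line. All 4 libraries with TGFb1 lie above both inhibitor libraries in each panel. Over all tested genes both TGFb1 libraries lay above both inhibitor libraries for 37.9%, and both TGFb1 + BMP4 libraries did for 44.9%.

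Of 16 genes of nucleic acid sensing upstream of interferon 13 were tested, and with TGFb1 3 were higher (Tlr3, Mavs and Adar) and 2 lower, which is near the 20.0% of all tested genes in each direction. Mavs, the adaptor of RIG-I and MDA5, had 226 and 173 CPM in TGFb1 and 73.4 and 53.1 CPM in inhibitor organoids (1.64 ± 0.25, adjusted p = 0.00392). Myd88, an adaptor of Toll-like receptors, fell to 49.3 and 56.9 CPM in TGFb1 organoids, against 98.3 and 98.3 CPM in inhibitor organoids (-0.88 ± 0.12, adjusted p = 0.00308). Mb21d1, which encodes the DNA sensor cGAS, fell to 6.3 and 6.45 CPM in TGFb1 organoids, against 13.6 and 12.5 CPM in inhibitor organoids (-0.93 ± 0.15, adjusted p = 0.00516). With BMP4 + inhibitor 1 of 13 was higher, Tlr3, a sensor of double-stranded RNA that also stands in the next list but one, at 1.56 ± 0.35 (adjusted p = 0.045).

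Of 9 negative regulators of interferon signalling, 1 was higher and 2 were lower with TGFb1. These counts are near the 20.0% of all tested genes in each direction. Irf2, a factor that competes with IRF1 for its sites, rose by 0.69 ± 0.18 (adjusted p = 0.0257), while its corepressor Irf2bp2 and the phosphatase gene Ptpn2 fell, at -0.65 ± 0.18 (adjusted p = 0.0284) and -0.78 ± 0.23 (adjusted p = 0.0381). With TGFb1 + BMP4, 2 of 9 were higher and 1 lower, where 27.6% of all tested genes were higher and 18.4% lower. Socs1 encodes a feedback inhibitor of JAK kinases that interferon induces. It had 2.8 and 2.9 CPM with TGFb1 + BMP4, against 1.45 and 1.3 CPM in inhibitor organoids (0.70 ± 0.23, adjusted p = 0.0473).

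A further list of 59 interferon stimulated genes outside the 40 had 43 tested, of which 23 were higher and 5 lower with TGFb1, 24 higher and 5 lower with TGFb1 + BMP4, and 2 higher and 3 lower with BMP4 + inhibitor, each against inhibitor. Over all tested genes 20.0% were higher and 20.0% lower with TGFb1, 27.6% and 18.4% with TGFb1 + BMP4, and 5.49% and 2.91% with BMP4 + inhibitor. In this list Apol9a, Apol9b, Epsti1 and Lgals9 were among the genes under 1 CPM in both inhibitor libraries. Such genes entered the test through other groups and could hardly be called lower. The list, like the members, was chosen with earlier results of these data known. Trim34a, a TRIM family protein, had 28.3 and 20.8 CPM in TGFb1 and 2.45 and 2.05 CPM in inhibitor organoids (2.96 ± 0.38, adjusted p = 0.00216), and Mov10, an RNA helicase, had 17.7 and 16 CPM in TGFb1 and 2.2 and 3 CPM in inhibitor organoids (2.32 ± 0.30, adjusted p = 0.00222). Nt5c3, a nucleotidase, was lower with TGFb1 (-1.33 ± 0.15, adjusted p = 0.00156). Tor3a, an ATPase of the endoplasmic reticulum, had 109 and 102 CPM in TGFb1 + BMP4 organoids, 70.5 and 69.6 CPM in TGFb1 organoids, 83.4 and 74.5 CPM in BMP4 + inhibitor organoids, and 44.3 and 45 CPM in inhibitor organoids. It was the only gene of this list called between TGFb1 + BMP4 and TGFb1 (0.58 ± 0.10, adjusted p = 0.0434). The median log2 fold changes of the list were 0.92 with TGFb1, 1.00 with TGFb1 + BMP4 and 0.22 with BMP4 + inhibitor, beside -0.01, 0.13 and 0.02 over all tested genes.

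Markers of fibroblasts moved with the same groups as the members, and their part in these results was not tested. The 9 fibroblast markers summed to 1432 and 6679 CPM in TGFb1 + BMP4 organoids, 1329.9 and 4628 CPM in TGFb1 organoids, 122 and 480.0 CPM in BMP4 + inhibitor organoids, and 26.8 and 112 CPM in inhibitor organoids. With TGFb1 5 of 9 were higher, beside 20.0% of all tested genes. The sum of the fibroblast markers was higher in replicate 2 of every group. The members' median difference, replicate 2 minus replicate 1, was 0.09 in TGFb1 + BMP4, -0.37 in TGFb1, -0.71 in BMP4 + inhibitor and -0.07 in inhibitor. The 9 muscle markers summed to 109 and 543 CPM in TGFb1 + BMP4 organoids, 76 and 285 CPM in TGFb1 organoids, 50.4 and 189 CPM in BMP4 + inhibitor organoids, and 14.8 and 66.2 CPM in inhibitor organoids. Of these 6 were tested and 1 was called higher with TGFb1, which is near the 20.0% of all tested genes. With TGFb1 + BMP4 2 were called higher, beside 27.6% of all tested genes. Their median log2 fold change was 1.74 with TGFb1 and 2.78 with TGFb1 + BMP4, beside -0.01 and 0.13 over all tested genes. All 6 were above 0 in both, where 8024 and 9302 of 16180 tested genes were. The part of muscle markers in the results on the members was not tested.

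Of 15 immune markers 9 stayed under 1 CPM in every library. Ptprc, which encodes the CD45 protein of all leukocytes, was at 0.3 CPM or less, Cd3e of T cells at 0.05 CPM or less and Ms4a1 of B cells at 0 in every library. Among the 6 tested, Itgam and Cd14 were higher with TGFb1, at 5.10 ± 0.55 and 3.46 ± 0.35, and Cd68 and Csf1r were lower, at -2.0 ± 0.20 and -0.64 ± 0.13. Lyz2 and Itgax did not pass in limma, at 2.45 (adjusted p = 0.202) and 0.75 (adjusted p = 0.223). Lyz2 had 5.9 and 51.6 CPM in TGFb1 + BMP4 organoids, and 3.1 and 37.4 CPM in TGFb1 organoids. It had 1.3 and 7.1 CPM in BMP4 + inhibitor organoids, and 0.2 and 3.4 CPM in inhibitor organoids. Its level was higher in replicate 2 of every group. The part of these markers in the results on the members was not tested. Itgam has 2 rows in the table, of which the first was used. The list summed to 180.2 and 225 CPM in TGFb1 + BMP4 organoids, 221 and 214 CPM in TGFb1 organoids, 92.8 and 77.8 CPM in BMP4 + inhibitor organoids, and 156 and 134 CPM in inhibitor organoids. The 6 endothelial markers summed to 5.6 CPM or less in every library.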

How the data were processed

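RNA from 8 organoid libraries was sequenced after preparation with the Ovation Solo RNA-seq System, per the labels' protocols. The submitters' processing notes list mm10 and GRCm38 as builds and, as tools, edgeR, HTSeq, STAR 2.5.3a and Cell Ranger 3.1.0, without saying what each did. Whether counting used strand is not given in the sources used here. Whole numbers deposited by the authors are treated as a score: by their pattern, read counts had been scaled to 20000000 per library and rounded up. The deposited CPM values are these divided by their totals, and were the values used.

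The test was limma 3.58.1 with trend in R 4.3.3, run over the 16180 genes that reached 1 CPM in 2 or more libraries, on log2(CPM + 1), which understates the change of low genes. Group was the only term over all 8 libraries, with 4 residual degrees of freedom. P-values are two-sided and adjusted by the Benjamini-Hochberg method over all tested genes in each of 6 comparisons, at a threshold of 0.05. The script was tested on simulated data. Rounding up makes values near 0.15 CPM imprecise, and such limits cover counting error only. Libraries of a group differed by 24.2 to 49.6 in chi-square per gene, so none was a duplicate.

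The members and lists were chosen with earlier results of these data known. Named are Irf7, Irf1, Irf9, Stat2, Isg15, Usp18, Ddx58 and Ifih1, and, for each comparison, the 6 called members whose log2 fold change was largest in size and whose higher group reached 5 CPM. Up to 3 other genes per list and comparison were taken by smallest adjusted p. Genes named to spell out a count of 5 or fewer were chosen after their values were seen. Alternatives were another pseudocount, other filters, median-of-ratios scaling, a replicate block, the compared groups alone, a minimum log2 fold change of 1 and leaving out each library. Gene positions are from GENCODE on GRCm38, promoters from RefSeq on GRCm38.p6. Motifs were searched on both strands. Shared sequence was measured as the share of a gene's 50-base stretches found in transcripts of other genes. A gene of the receptor list is not reported here.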

Additional observations from a re-analysis of the deposited data

How the results depend on the processing

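No called member changed direction under any alternative run. The number of members called for BMP4 + inhibitor against inhibitor, 5, was 1 with no filter on low values, 2 with the compared groups alone and 8 with a replicate block, and 0 to 14 with 1 library left out. For TGFb1 against inhibitor, 28, leaving out 1 library gave 18 to 30 (18 without TGFb1 replicate 1 or inhibitor replicate 2), and calls of Irf1, Irf9, Ifih1, Oasl1 and Ifitm3 were among the 10 lost in at least 1 such fit. For TGFb1 + BMP4 against inhibitor, 27, the range was 21 to 29. For TGFb1 + BMP4 against BMP4 + inhibitor, 21, the compared groups alone gave 11 and leaving out 1 library 8 to 25. For TGFb1 + BMP4 against TGFb1, 0, the replicate block gave 2 (Oasl1 and Ifi44), and leaving out 1 library 0 to 1. For the interaction, 0, a pseudocount of 0.1 and median-of-ratios scaling each gave 1 (Irf7), the replicate block 5 (Irf7, Trim25, Oas2, Ifitm3 and Samhd1), and leaving out 1 library 0 to 3. Where a library was left out, the lone library of its group was assumed to vary like the others. The causes were not tested. Median-of-ratios scaling moved the median of all genes in TGFb1 + BMP4 against inhibitor to 0.01, beside 0.13. Libraries sharing a number deviated together from their group means (r from 0.32 to 0.74), but the labels do not say what a number shares, and with 2 numbers this is no more than a hint. The block gave 29, 28 and 24 calls for TGFb1, TGFb1 + BMP4 against inhibitor, and TGFb1 + BMP4 against BMP4 + inhibitor. With 2 libraries a group and members near 0.15 CPM, small changes were not detectable.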
